A study of Macaca mulatta with 16 samples.

Results

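The RNA of 10 genes of the interstitial collagen matrix was followed in the lungs of 16 rhesus macaque fetuses. The genes encode chains of the fibrillar collagens of types I, III and V (COL1A1, COL1A2, COL3A1, COL5A1 and COL5A2), chains of types VI and VIII (COL6A3 and COL8A2), and 3 partners of collagen (the secreted protein SPARC, the integrin subunit ITGA11 and the fibroblast protease FAP). They were taken by symbol: each of the 10 symbols belonged to 1 Ensembl gene ID among the 22515 genes of the count table, and all 10 had enough counts to be tested. COL1A1, COL1A2 and COL3A1 are named by the study from these same animals, so a fall in them is not independent evidence of its direction. The groups were 4 untreated preterm controls delivered at 131 to 135 days of gestation, 4 fetuses delivered at 130 or 131 days, 16 hours after 1 mg of LPS was injected into the amniotic fluid (LPS 16h), 3 fetuses delivered at 131 to 134 days, 5 days after the same injection (LPS 5d), 3 fetuses delivered at 131 or 132 days whose dams also received 0.125 mg/kg of betamethasone acetate by the intramuscular route (LPS + Beta-Ac 5d), and 2 untreated term controls delivered at 156 and 157 days. LPS, lipopolysaccharide, is a component of the bacterial outer membrane and is used as a model of inflammation in the amniotic cavity. Beta-Ac is a slowly released corticosteroid. The controls had no intervention, so LPS and the injection itself cannot be told apart, and fetuses given Beta-Ac alone were not analysed here.

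Interstitial collagens form the load-bearing network of the lung mesenchyme. Their chains are hydroxylated and folded in the endoplasmic reticulum as triple helices (type I from alpha 1 and alpha 2 chains, type III from its own chain alone), secreted, trimmed, assembled into fibrils and joined by lysyl oxidases. Type V collagen starts and limits the growth of fibrils, type VI forms beaded filaments around cells, and type VIII forms short-chain networks. SPARC binds collagen in the matrix, the integrin subunit alpha 11 pairs with beta 1 to hold fibroblasts to collagen fibrils, and FAP is a surface protease of activated fibroblasts. In the late fetal lung the mesenchyme thins as air spaces form. In bulk tissue, fewer cells of a type and less RNA per cell cannot be told apart.

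The libraries held 20169363 to 28348816 counts on genes, except those of LPS 16h, which held 30596371 to 48052891, so depth moved with that group. The 12 markers of fibroblasts and mesenchyme, of which 11 were measured, summed to 5006 to 6317 CPM (counts scaled to a common library size) in the preterm controls, 3529 to 4467 at LPS 16h, 3374 to 3879 at LPS 5d, 3537 to 4167 with LPS + Beta-Ac and 3809 to 4535 in the term controls. The sum of these markers was therefore lower in all other groups than in any preterm control. Among the 10 genes, this held for COL5A1, COL6A3, ITGA11 and SPARC, and the share of all genes for which it held was not counted. The part of the markers in the results was not tested. The 8 markers of lung epithelium were all detected in every animal, at a sum of 6038 CPM or more. Preterm control 209 and term control 200 lay apart on the third principal component with LPS 16h animal 029 and LPS 5d animal 240.

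The 10 genes took a large share of each library, and that share was largest in the preterm controls. Most of it came from 5 genes. In the preterm controls the mean sum was 20576 CPM. COL3A1 had a mean of 5853 CPM there, COL1A1 4390, SPARC 3929, COL1A2 3688 and COL6A3 1815. ITGA11, FAP and COL8A2 had means of 6.29, 3.47 and 2.03 CPM and hardly enter the share. The share was 1.97%, 1.66%, 2.45% and 2.40% of all counts in preterm controls 092, 101, 113 and 209. It was 1.36%, 1.16%, 0.972% and 1.23% in LPS 16h animals 026, 029, 035 and 038, and 1.32%, 1.61% and 1.00% in LPS 5d animals 239, 240 and 242. It was 1.28%, 0.959% and 1.11% in LPS + Beta-Ac animals 248, 249 and 255, and 1.10% in each of the 2 term controls. All 12 animals outside the preterm control group therefore lay below the lowest preterm control in this unscaled share. LPS 5d animal 240 came nearest to it. In summed CPM, the scaling used for the single genes, LPS 5d overlapped the preterm controls. Its highest sum was 15817 CPM, and the lowest preterm control had 15531 CPM. Within the preterm controls the share was higher at later delivery. Animal 101, delivered at 131 days, had the lowest value of the 4 in 9 of the 10 genes, and animal 113, delivered at 135 days, had the highest in 8. Of the 4 preterm controls, 3 were older at delivery than any LPS 16h or LPS + Beta-Ac fetus, so age at delivery and treatment moved together in part.

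**Figure D1:**
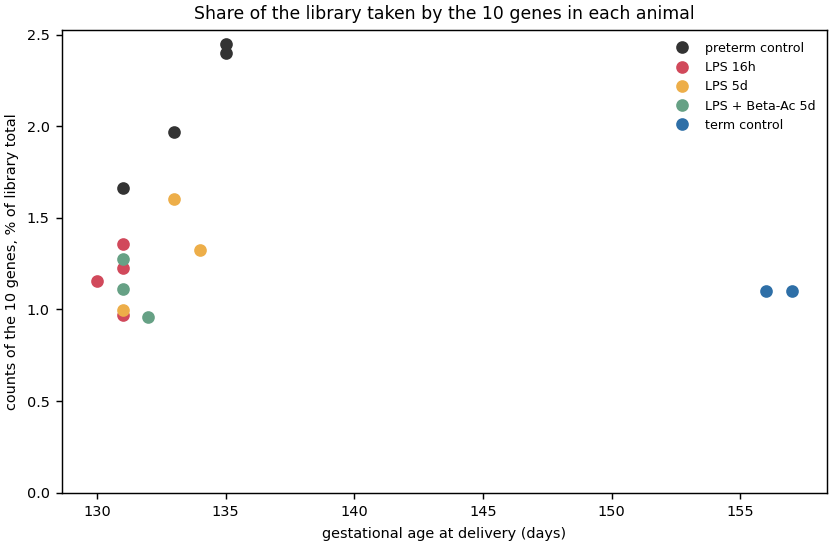
The y axis gives the counts of the 10 genes as a percent of the library total and the x axis the gestational age at delivery in days, with 1 point per animal coloured by group. The 4 preterm controls lie between 1.66% and 2.45%, and the youngest of them, at 131 days, lies above all the treated fetuses of 130 to 134 days. In summed CPM the LPS 5d animals and the preterm controls overlap. Most of the share comes from COL3A1, COL1A1, SPARC, COL1A2 and COL6A3.

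Type I collagen was the first pair of chains examined. COL1A1 (ENSMMUG00000001467), the alpha 1 chain, stood at 3775, 2810.2, 5166 and 5809 CPM in the preterm controls 092, 101, 113 and 209. It stood at 3802, 3802, 3416 and 3586 CPM at LPS 16h, which is inside the range of the preterm controls and far less spread. By 5 days after LPS it had values of 2539.7, 3966 and 1319.5 CPM in animals 239, 240 and 242. The LPS 5d animals thus ran from inside the control range to well below it. With LPS + Beta-Ac it stood at 2277, 1459.8 and 1639 CPM, and in the term controls at 1717 and 1157 CPM, all below the lowest preterm control. COL1A2 (ENSMMUG00000039654), the alpha 2 chain, had 3342, 2452, 4601 and 4358 CPM in the same preterm controls. At LPS 16h it had 2175, 2341, 1351 and 2137 CPM, so that here, unlike in COL1A1, no LPS 16h animal reached the preterm range, and animal 035 was lowest. It had 2290.2, 2832 and 1473 CPM at LPS 5d, 2099, 1503 and 1679 CPM with LPS + Beta-Ac, and 1746 and 1305 CPM at term. Only LPS 5d animal 240 reached the preterm control values of this chain.

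COL3A1 (ENSMMUG00000021286), the single chain of type III collagen, which is laid down with type I in compliant tissue, had 5518, 4572, 7546 and 5777 CPM in the preterm controls. It had 4228, 2992, 2459 and 3226 CPM at LPS 16h and 3938, 4732 and 2989 CPM at LPS 5d. All LPS 16h animals were below the controls, and LPS 5d animal 240 again overlapped them. Values were 3851, 2800.1 and 3235 CPM with LPS + Beta-Ac and 2554 and 3019 CPM at term, without overlap with the preterm controls. The chains of type V collagen differed in the order of their group means. COL5A1 (ENSMMUG00000012147) was tight in the preterm controls at 522, 506, 598 and 539 CPM and stood at 330.5, 255, 268 and 299 CPM at LPS 16h, its lowest group by mean. It was at 443, 474 and 324 CPM at LPS 5d, 418, 329 and 364 CPM with LPS + Beta-Ac and 353 and 357 CPM at term, below every preterm control. COL5A2 (ENSMMUG00000021290) had 303, 286, 433 and 366 CPM in the preterm controls and 477, 307, 441 and 415 CPM at LPS 16h, its highest group by mean. Its other groups, with 249.8 to 309 CPM at LPS 5d, 224 to 297 CPM with LPS + Beta-Ac and 242 and 303 CPM at term, overlapped the lower preterm controls. COL3A1 and COL5A2 are neighbouring genes, with 0 protein-coding genes between them in the T2T-MMU8v2.0 rhesus assembly. The reads were assigned to another build, Mmul_10. At LPS 16h the fitted log2 difference from preterm controls was -0.86 for COL3A1 (adjusted p = 0.0022 in limma). It was 0.24 for COL5A2 (adjusted p = 0.25 in limma). Whether these 2 changes differed from each other was not tested.

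COL6A3 (ENSMMUG00000014049), the alpha 3 chain of type VI collagen, had 1951, 1605, 1959.8 and 1744 CPM in the preterm controls. It had 1453, 1079, 939 and 1368 CPM at LPS 16h, and 986, 954 and 922 CPM at LPS 5d, where the 3 animals were nearly equal. It had 1425, 771 and 1072 CPM with LPS + Beta-Ac and 961 and 1050.5 CPM at term. No animal outside the preterm controls reached them in this gene. COL8A2 (ENSMMUG00000012031), the alpha 2 chain of type VIII collagen, was scarce, with 12 to 293 counts per library, and had its highest mean at LPS 16h. It had 2.39, 0.926, 2.41 and 2.40 CPM in the preterm controls and 4.01, 3.43, 6.79 and 3.23 CPM at LPS 16h, where every animal was above every preterm control. It had 1.27, 0.883 and 0.570 CPM at LPS 5d, 1.06, 0.943 and 0.501 CPM with LPS + Beta-Ac, and 0.588 and 0.615 CPM at term. Those 3 groups lay at or below preterm control 101 except for LPS 5d animal 239 and the LPS + Beta-Ac animals 248 and 249.

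Among the partners, SPARC (ENSMMUG00000053367) had 4051, 3289, 4325 and 4052 CPM in the preterm controls. Its values were 2267, 2665, 1940.1 and 2327 CPM at LPS 16h, 2545, 2544 and 2321 CPM at LPS 5d, 2468, 2442 and 2181 CPM with LPS + Beta-Ac, and 2903 and 2652 CPM at term. The preterm controls were above all 12 other animals, and the LPS-exposed fetuses lay between 1940.1 and 2665 CPM. ITGA11 (ENSMMUG00000004026), with 40 to 182 counts per library, had 5.18, 7.36, 6.46 and 6.16 CPM in the preterm controls, the 1 gene in which animal 101 was the highest. It had 1.81, 2.05, 1.53 and 2.33 CPM at LPS 16h, 3.92, 4.37 and 2.19 CPM at LPS 5d, 2.75, 1.85 and 3.08 CPM with LPS + Beta-Ac, and 3.35 and 1.29 CPM at term. No other animal reached a preterm control. FAP (ENSMMUG00000003200), with 32 to 150 counts, had 3.53, 1.90, 5.08 and 3.39 CPM in the preterm controls, 3.02, 3.99, 2.60 and 3.66 CPM at LPS 16h, and 1.18 and 1.81 CPM at term. It ran from 1.34 to 2.61 CPM at LPS 5d and from 1.52 to 2.49 CPM with LPS + Beta-Ac, and both ranges held the value of preterm control 101.

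**Figure D2:**
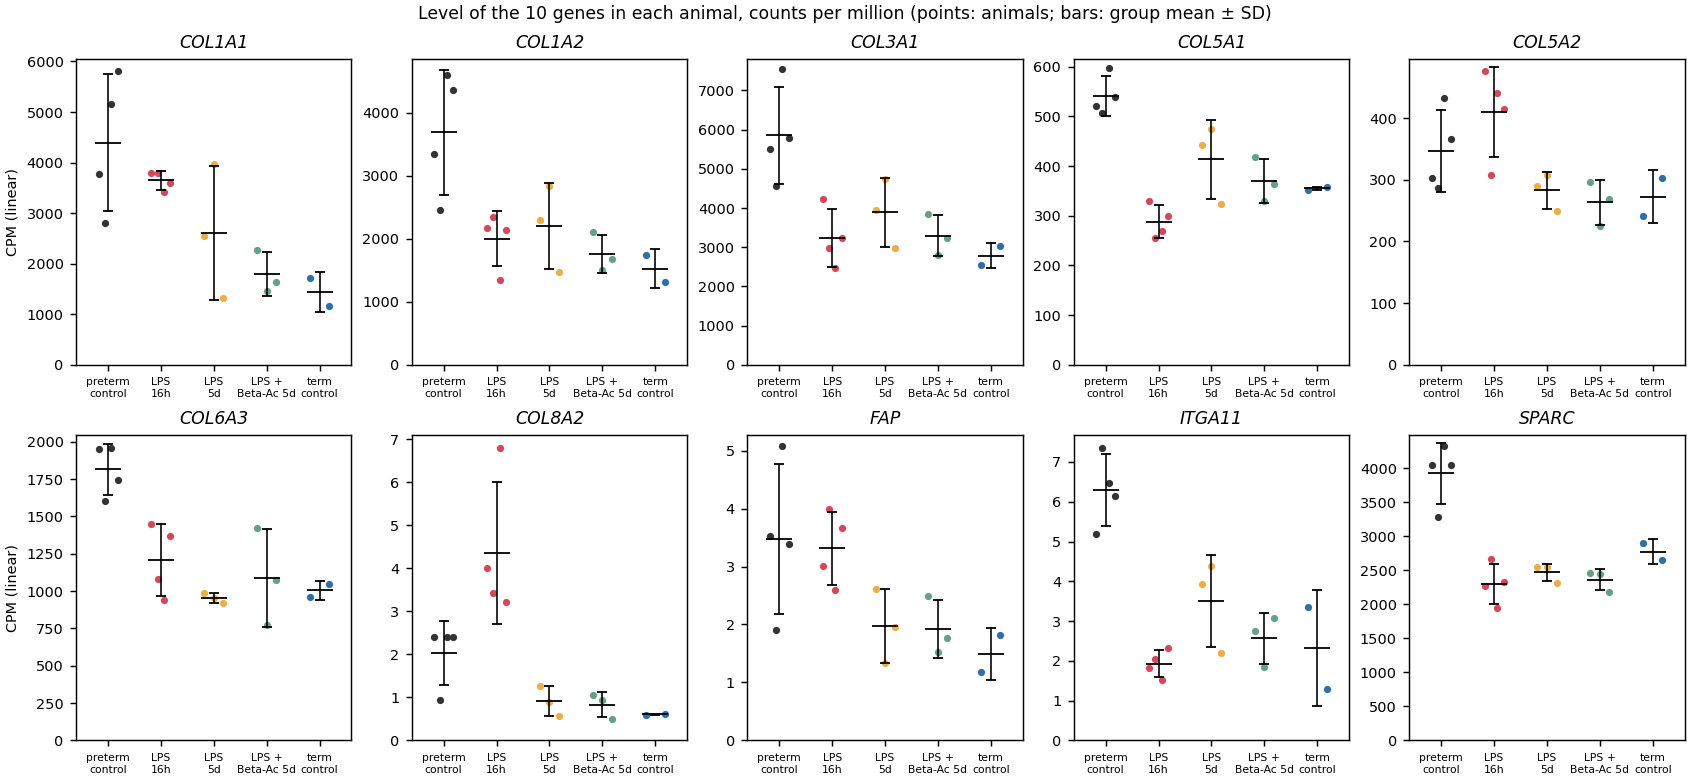
Each panel gives the CPM of 1 gene on a linear axis from 0, with 1 point per animal and the group mean ± SD as bars. COL8A2 peaks at LPS 16h (3.23 to 6.79 CPM), while SPARC, COL5A1, COL6A3 and ITGA11 are highest in the preterm controls without overlap with any other group. The share of all genes with such a gap was not counted.

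The order of the groups by mean differed between genes. COL1A1 ran from preterm controls (4390.0 ± 1353 CPM, SD, n = 4) through LPS 16h (3652 ± 187, n = 4), LPS 5d (2608 ± 1324, n = 3) and LPS + Beta-Ac (1792 ± 429.6, n = 3) to term (1437 ± 396, n = 2). No neighbouring pair in that order differed at an adjusted p below 0.05. COL1A2 ran from preterm controls (3688 ± 988) to LPS 5d (2198 ± 684), LPS 16h (2001 ± 442), LPS + Beta-Ac (1760.4 ± 306) and term (1526 ± 311), and again no neighbouring pair passed the test, where it was made. The values of LPS 16h and LPS + Beta-Ac, which were not compared by a test, overlapped. In COL1A2, COL3A1, COL5A1, COL6A3, ITGA11 and SPARC the step from the preterm controls to the group next in order was the widest. That step passed the limma test in COL6A3 (to LPS 16h, adjusted p = 0.011). It did not pass to LPS 5d in COL1A2 (adjusted p = 0.066), COL3A1 (adjusted p = 0.067), COL5A1 (adjusted p = 0.058) or ITGA11 (adjusted p = 0.071). Nor did it pass in SPARC (to term, adjusted p = 0.058). LPS 16h stood above the preterm controls in COL8A2 (4.36 ± 1.65 and 2.03 ± 0.739 CPM) and in COL5A2 (409.9 ± 73.0 and 347 ± 67.0 CPM). Of these 2 genes, only COL8A2 passed the test.

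At 16 hours after LPS, 6 of the 10 genes were lower than in preterm controls and COL8A2 was higher. Changes are log2 fold changes from limma on log2 CPM, with Benjamini-Hochberg adjusted p over 19199 genes, and a gene is called when its adjusted p is below 0.05 and it changed at least 2-fold. Of the 10 genes, 6 fell at an adjusted p below 0.05, against 19.9% of all genes tested, and 1 rose, against 18.5%. With the 2-fold limit, 1 was called lower, against 6.11% of all genes, and 1 higher, against 8.25%. The median change of the 10 was -0.69, beside -0.09 over all genes tested. ITGA11 fell most, by 1.68 (SE 0.29, adjusted p = 0.00032), and the other genes that passed fell by 0.91 in COL5A1 (SE 0.13, adjusted p = 4.1e-05), 0.87 in COL1A2 (SE 0.24, adjusted p = 0.010), 0.86 in COL3A1 (SE 0.19, adjusted p = 0.0022), 0.77 in SPARC (SE 0.11, adjusted p = 6.9e-05) and 0.60 in COL6A3 (SE 0.17, adjusted p = 0.011). COL8A2 rose by 1.11 (SE 0.35, adjusted p = 0.023), a call that was lost without LPS 16h animal 035 (0.89, adjusted p = 0.076) and without preterm control 101 (0.78, adjusted p = 0.078). COL1A1 (-0.21, SE 0.29, adjusted p = 0.61), FAP (-0.00, SE 0.29, adjusted p = 0.99) and COL5A2 (0.24, SE 0.16, adjusted p = 0.25) did not pass. Scaled to total counts alone, COL1A2 (-1.07), COL3A1 (-1.06) and COL5A1 (-1.11) were called and COL8A2 was not (0.91, adjusted p = 0.043). COL5A2 passed without LPS 16h animal 029 (0.40, adjusted p = 0.048), and COL1A2 was called at -1.05 without preterm control 101. With gestational age at delivery as a covariate among the preterm groups, COL1A2 (-0.38), COL3A1 (-0.53) and COL6A3 (-0.55) no longer passed, COL5A2 did (0.56, adjusted p = 0.043), and ITGA11 (-1.60) and COL8A2 (1.97) were still called. In that fit COL1A1 turned from -0.21 to 0.45 (adjusted p = 0.30) and FAP from -0.00 to 0.42 (adjusted p = 0.44). The unequal change of the chains is a difference within each library that scaling cannot alter, and is taken up with the ratios.

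**Figure D3:**
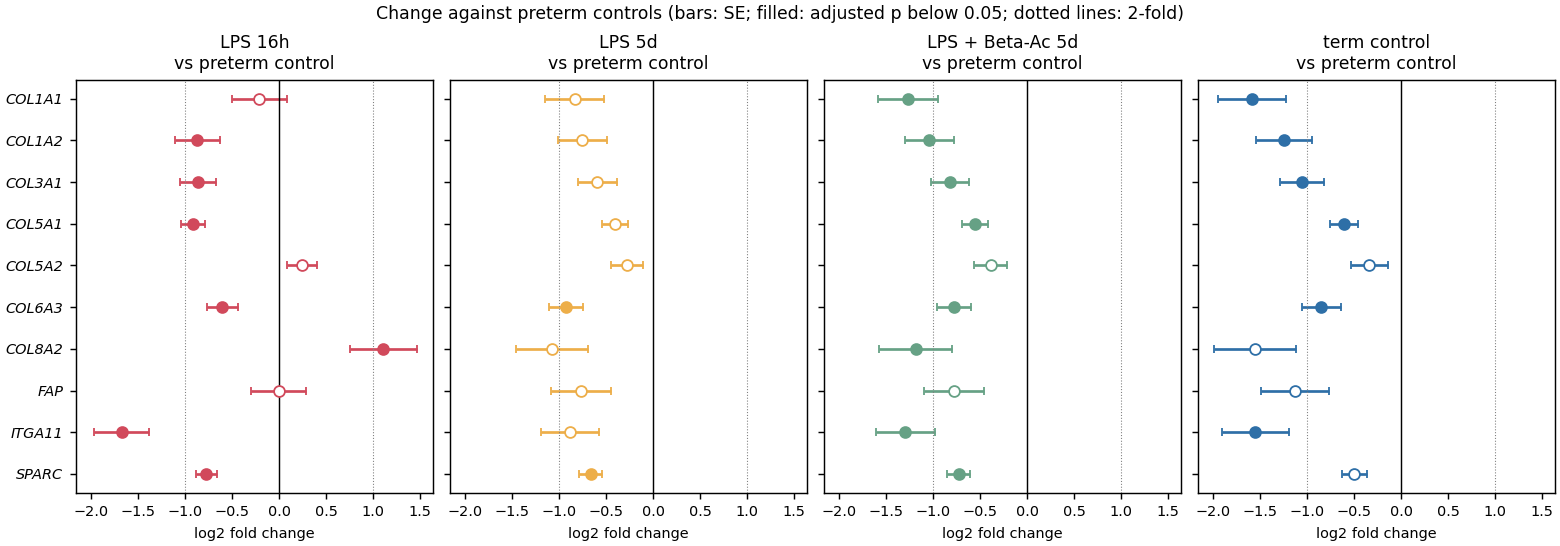
The x axis gives the log2 fold change of each gene against preterm controls in 4 comparisons, with the SE as bars, filled points where the adjusted p is below 0.05 and dotted lines at 2-fold. At LPS 16h, COL8A2 lies to the right (1.11) and ITGA11 furthest to the left (-1.68), whereas in the other 3 panels all 10 genes lie left of 0.

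At 5 days after LPS alone, all 10 genes had lower means than in preterm controls, as had 50.1% of all genes on the log2 scale. Only 2 passed the test as lower, against 9.22% of all genes tested. COL6A3 fell by 0.92 (SE 0.18, adjusted p = 0.0037) and SPARC by 0.66 (SE 0.12, adjusted p = 0.0023). By the 2-fold limit 0 of the 10 were called, against 2.23% of all genes lower, while 9 of the 10 had an unadjusted p below 0.05, against 28.0% of all genes. The median change was -0.76, beside -0.00 over all genes. The other 8 had values from -1.08 (COL8A2, adjusted p = 0.074) to -0.28 (COL5A2, adjusted p = 0.32), with COL1A1 at -0.83 (SE 0.32, adjusted p = 0.095), COL1A2 at -0.75 (SE 0.26, adjusted p = 0.066) and COL3A1 at -0.59 (SE 0.21, adjusted p = 0.067). The 3 animals were uneven: animal 242, delivered at 131 days, had the lowest value in 9 of the 10 genes and animal 240 the highest in 6. Without animal 240, COL1A1 was called (-1.18, adjusted p = 0.031), and without animal 242 it stood at -0.41 (adjusted p = 0.39), COL1A2 at -0.49 (adjusted p = 0.27), COL5A1 at -0.24 (adjusted p = 0.27) and ITGA11 at -0.58 (adjusted p = 0.29). Without preterm control 101, COL8A2 (-1.40, adjusted p = 0.018) and FAP (-1.02, adjusted p = 0.036) were called, and COL1A2 (-0.94, adjusted p = 0.030) and COL3A1 (-0.70, adjusted p = 0.047) passed.

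With LPS + Beta-Ac at 5 days, 8 of the 10 genes fell against preterm controls, where 10.2% of all genes did. Of these, 4 were called, against 2.44% of all genes: COL1A1, COL1A2, COL8A2 and ITGA11. ITGA11 fell by 1.29 (SE 0.31, adjusted p = 0.0095), COL1A1 by 1.26 (SE 0.32, adjusted p = 0.013), COL8A2 by 1.19 (SE 0.38, adjusted p = 0.045) and COL1A2 by 1.04 (SE 0.26, adjusted p = 0.012). COL3A1 decreased by 0.82 (SE 0.21, adjusted p = 0.012), COL6A3 by 0.78 (SE 0.18, adjusted p = 0.0083), SPARC by 0.73 (SE 0.12, adjusted p = 0.00086) and COL5A1 by 0.55 (SE 0.14, adjusted p = 0.011). FAP was at -0.77 (adjusted p = 0.11) and COL5A2 at -0.39 (adjusted p = 0.14). The median change was -0.80, beside -0.01 over all genes. Animal 249 had the lowest value in 8 of the 10 genes, and without it SPARC alone passed and 0 were called, with adjusted p of 0.065 for ITGA11, 0.072 for COL1A1 and 0.070 for COL1A2. COL1A2 fell short of 2-fold without preterm control 113 (-0.92) or 209 (-0.94), and without preterm control 209 and term control 200 together COL1A2 (-0.94, adjusted p = 0.032) and COL8A2 (-1.08, adjusted p = 0.10) were not called. COL8A2 was lost without any 1 of the 7 animals except preterm control 101 (adjusted p from 0.064 to 0.18) and also with voom weights, median-of-ratios scaling, no filter or the 2 groups fitted alone (adjusted p from 0.051 to 0.089). FAP passed without preterm control 101 (-1.03, adjusted p = 0.029). With gestational age as a covariate, ITGA11 (-1.23, adjusted p = 0.024) and SPARC (-0.61, adjusted p = 0.015) alone passed and COL1A1 stood at -0.74 (adjusted p = 0.12).

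The term controls were compared with the preterm controls for the change with normal gestation. Of the 10 genes, 6 fell, against 2.58% of all genes, and 4 were called lower, against 0.953%: COL1A1 by 1.58 (SE 0.36, adjusted p = 0.027), ITGA11 by 1.55 (SE 0.35, adjusted p = 0.027), COL1A2 by 1.25 (SE 0.29, adjusted p = 0.032) and COL3A1 by 1.05 (SE 0.23, adjusted p = 0.023). COL6A3 fell by 0.85 (adjusted p = 0.035) and COL5A1 by 0.61 (adjusted p = 0.040). COL8A2 (-1.55, adjusted p = 0.060), FAP (-1.13, adjusted p = 0.094), SPARC (-0.49, adjusted p = 0.058) and COL5A2 (-0.34, adjusted p = 0.38) did not pass. The median change was -1.09, beside -0.01 over all genes. Scaled to total counts alone, COL3A1 stood at -0.98 and was not called, and COL5A1 and COL6A3 did not pass. This comparison rests on 2 term animals. Without term control 201, and likewise without preterm control 113, 0 of the 10 passed, without term control 200 only ITGA11 did, and without preterm control 092 ITGA11 and COL3A1 did. Without preterm control 101, ITGA11 (-1.47, adjusted p = 0.061), COL5A1 and COL6A3 were lost, while COL8A2 (-1.88, adjusted p = 0.026), FAP (-1.39, adjusted p = 0.044) and SPARC (-0.58, adjusted p = 0.041) passed. A single remaining term animal was assumed to vary like the other groups. ITGA11, whose term values were 3.35 and 1.29 CPM, stood at -0.88 without term control 201 (adjusted p = 0.26) and at -2.21 without term control 200. Without preterm control 209 and term control 200 together, ITGA11 was the 1 gene called (-2.22, adjusted p = 0.020), and COL1A1 (-1.72, adjusted p = 0.086), COL1A2 (-1.36, adjusted p = 0.10), COL3A1 (-0.93, adjusted p = 0.17), COL5A1 (-0.60, adjusted p = 0.19) and COL6A3 (-0.80, adjusted p = 0.19) did not pass. A fit of these 2 groups alone called 0, with COL1A1 at -1.56 (adjusted p = 0.079).

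LPS + Beta-Ac and LPS alone at 5 days were then compared with each other. No sham intramuscular injection is recorded for the LPS 5d dams, so the steroid and its injection cannot be told apart. Delivery was at 131 or 132 days with LPS + Beta-Ac and at 131 to 134 days at LPS 5d. None of the 10 genes passed at an adjusted p below 0.05 or had an unadjusted p below that level in limma, and 17 of all 19199 genes did after adjustment (0.0885%), with 924 at an unadjusted p below 0.05. The differences, LPS + Beta-Ac minus LPS, ran from -0.43 (COL1A1, SE 0.34) and -0.41 (ITGA11, SE 0.33) to 0.15 (COL6A3, SE 0.19), and 9 of the 10 were below 0. With gestational age as a covariate FAP (0.20), COL8A2 (0.31), COL5A2 (0.046) and SPARC (0.0086) were above 0 too. COL1A1 stood at -0.06 without LPS 5d animal 240 and at -0.85 without animal 242 (adjusted p = 0.72), and ITGA11 at -0.71 without animal 242 and at -0.20 without LPS + Beta-Ac animal 249. In each of the 10 genes the values of the 2 groups overlapped, and the share of all genes that did so was not counted. Both 5-day groups were compared with the same preterm controls, so calls made in only one of those comparisons do not show a difference between the treatments. Against term controls, 0 of the 10 differed with LPS 5d, where 0.0990% of all genes did in either direction, and 0 with LPS + Beta-Ac, where 0.734% did. In both of these comparisons 0 of the 10 also had an unadjusted p below 0.05. COL1A1 was 0.75 above term with LPS 5d (SE 0.38, adjusted p = 0.49) and 0.32 above with LPS + Beta-Ac (SE 0.38, adjusted p = 0.74). SPARC lay below term in both, at -0.17 (SE 0.14, adjusted p = 0.71) and -0.23 (SE 0.14, adjusted p = 0.48), and its values in both LPS groups were all under the 2 term values.

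Between 16 hours and 5 days after LPS, 2 of the 10 genes fell and 1 rose, where 19.2% of all genes fell and 15.9% rose (35.1% in either direction). COL8A2 was the 1 gene called lower, against 7.93% of all genes, and it dropped by 2.18 (SE 0.38, adjusted p = 0.00043), with no overlap between the 3 and the 4 animals. This call held without any 1 of the 7 animals, with log2 changes from -2.43 to -1.91. COL5A1 rose by 0.51 (SE 0.14, adjusted p = 0.0084) and COL5A2 fell by 0.52 (SE 0.17, adjusted p = 0.028). The fitted changes of these 2 type V chains had opposite signs, and the difference between them was not tested. COL5A1 was lost without LPS 5d animal 240 (0.41, adjusted p = 0.054), and COL5A2 without LPS 16h animals 026, 035 or 038 or without LPS 5d animals 239 or 242 (adjusted p from 0.066 to 0.11). ITGA11 stood at 0.79 (adjusted p = 0.061), and was called without LPS 5d animal 242 (1.09, adjusted p = 0.020). COL1A1 stood at -0.62 (adjusted p = 0.14) and passed without LPS 5d animal 240 (-0.99, adjusted p = 0.025). With gestational age as a covariate COL1A1 (-1.09, adjusted p = 0.012) and FAP (-1.06, adjusted p = 0.035) were called and COL5A1 did not pass (0.37, adjusted p = 0.087), and scaled to total counts COL5A2 did not (-0.33, adjusted p = 0.15). The median of the 10 was -0.11, beside 0.04 over all genes.

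Ratios of 2 genes within a library do not depend on its scaling and show whether the chains kept their proportions. The ratio of COL1A1 to COL1A2 CPM was 1.13, 1.15, 1.12 and 1.33 in preterm controls 092, 101, 113 and 209. It was 1.75, 1.62, 2.53 and 1.68 in LPS 16h animals 026, 029, 035 and 038, all above the preterm controls. It was 1.11, 1.40 and 0.896 at LPS 5d, 1.09, 0.971 and 0.976 with LPS + Beta-Ac and 0.984 and 0.886 at term. The animals of LPS + Beta-Ac and term were thus below all preterm controls, and those of LPS 5d on both sides. The difference in mean log2 ratio at LPS 16h was 0.66 (exact permutation test, two-sided, p = 0.029, the smallest p for 4 against 4 animals), and after adjustment over the 15 tests of 3 ratios in 5 comparisons the adjusted p was 0.17. With LPS + Beta-Ac the difference was -0.23 (exact permutation p = 0.057, the smallest p for 3 against 4, adjusted p = 0.17) and at term -0.34 (exact permutation p = 0.13, again the smallest, adjusted p = 0.25). With fewer than 4 animals in a group, this exact permutation test cannot fall below 0.05.

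All 3 ratios contain COL1A1, which is the divisor in that of SPARC, so their results are not independent of each other. The ratio of COL1A1 to COL3A1 gave a like picture with more overlap. It was 0.684, 0.615, 0.685 and 1.01 in the preterm controls and 0.899, 1.27, 1.39 and 1.11 at LPS 16h, where animal 026 lay below preterm control 209. The log2 difference was 0.65 (exact permutation p = 0.057, adjusted p = 0.17). It was -0.45 with LPS + Beta-Ac (exact permutation p = 0.057, adjusted p = 0.17), with values of 0.507 to 0.591, and -0.53 at term (exact permutation p = 0.27). The ratio of SPARC to COL1A1 ran the other way, from 0.698 to 1.17 in the preterm controls and from 0.568 to 0.701 at LPS 16h, a difference of -0.56 (exact permutation p = 0.057, adjusted p = 0.17). It was 1.69 and 2.29 at term, above all preterm controls, a difference of 1.09 (exact permutation p = 0.13, the smallest p for 2 against 4, adjusted p = 0.25). At LPS 5d the differences of the 3 ratios from the preterm controls were -0.08, -0.24 and 0.17, each of which changed sign without animal 242, and between LPS + Beta-Ac and LPS 5d they were -0.15, -0.20 and 0.36, of which the first 2 changed sign without animal 240. None of the 15 tests had an adjusted p below 0.05.

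**Figure D4:**
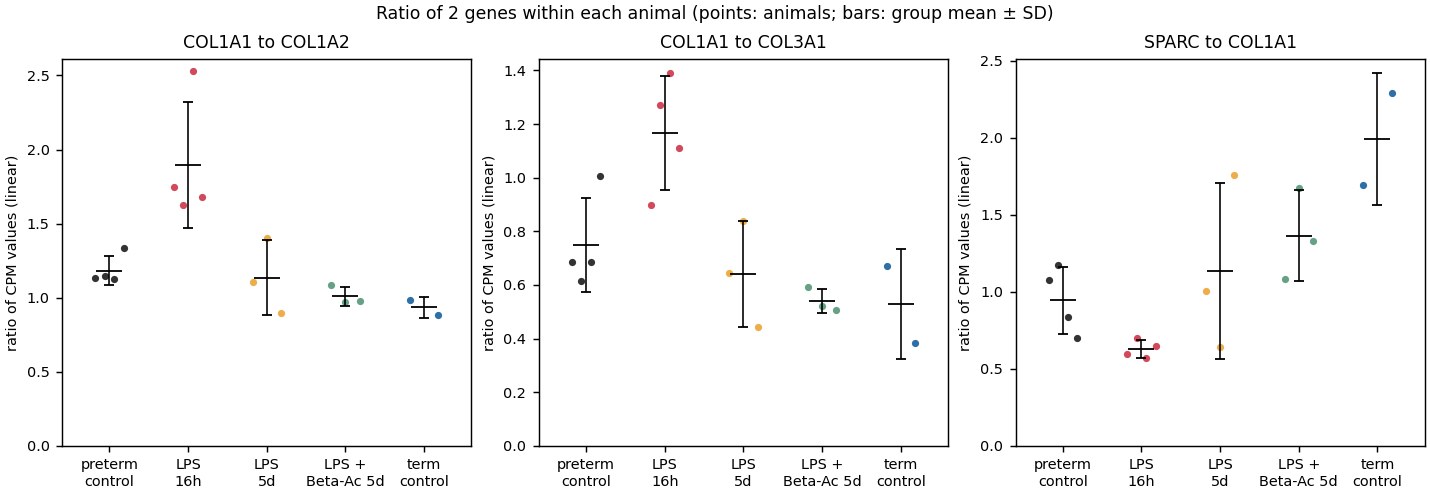
Each panel gives the ratio of the CPM values of 2 genes within an animal on a linear axis from 0, with the group mean ± SD as bars. The COL1A1 to COL1A2 ratio of the 4 LPS 16h animals (1.62 to 2.53) lies above that of all preterm controls (1.12 to 1.33).

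The counts of genes in the pathway lists are to be read against the shares of all genes that passed in the same comparison. At LPS 16h 19.9% of all genes fell and 18.5% rose, at LPS 5d 9.22% fell and 5.49% rose, with LPS + Beta-Ac 10.2% fell and 7.14% rose, and at term 2.58% fell and 1.43% rose. The genes that modify and fold collagen chains in the endoplasmic reticulum changed at LPS 16h in both directions. Of 24 tested, 9 rose and 5 fell, 6 and 1 of them by at least 2-fold, with a median of 0.09, so that the share that fell was near that of all genes. SEC24D, a coat protein of the vesicles that carry collagen, rose by 2.00 (SE 0.18, adjusted p = 4.5e-07), P4HB, the beta subunit of prolyl 4-hydroxylase and a disulfide isomerase, by 1.35, and PPIB, a prolyl isomerase, by 1.29. In the later groups few genes of this list passed: 2 fell and 0 rose at LPS 5d, 1 fell and 0 rose with LPS + Beta-Ac, and 2 fell and 1 rose at term, none called. The genes for processing and cross-linking passed more often as lower than as higher outside LPS 16h. Of 13, 4 fell at LPS 5d, 6 with LPS + Beta-Ac, 3 at term and 2 at LPS 16h, and 2 rose at LPS 16h and 0 in the others. LOX, a lysyl oxidase, fell by 1.33 with LPS + Beta-Ac (adjusted p = 0.0021), LOXL1 by 1.01 at LPS 5d (adjusted p = 0.00030) and by 1.18 at term (adjusted p = 0.00091), and LOXL2 by 1.22 at term (adjusted p = 0.0048).

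Of the 10 small leucine-rich proteoglycans, which coat fibrils, 7 fell and 0 rose at LPS 16h with a median of -1.26, against 2 at LPS 5d, 3 with LPS + Beta-Ac and 2 at term. At LPS 16h the called genes that changed most were OMD (-2.75), ASPN (-2.52) and OGN (-2.38), and OGN was called in all 4 comparisons, by -1.63 at LPS 5d, -1.94 with LPS + Beta-Ac and -1.34 at term. OMD was called with LPS + Beta-Ac too (-2.31). Of the 10 other fibrillar and fibril-associated collagens, 2 fell and 0 rose in each of the 4 comparisons, a share near that of all genes at LPS 16h and above it at term. COL27A1 was called at LPS 16h (-1.23, adjusted p = 4.1e-05), and COL2A1, the cartilage collagen, at LPS 5d (-2.28), with LPS + Beta-Ac (-2.24) and at term (-3.19). COL2A1 ran from 5.09 to 87.8 CPM in the preterm controls, so these values rest on uneven controls, and the summed cartilage markers also ran from 149.6 to 356 CPM there against 92.5 to 167 CPM in the other groups. Of the 5 partner chains of types VI and VIII, 1 rose at LPS 16h, 1 fell and 1 rose at LPS 5d, 1 fell with LPS + Beta-Ac and 0 passed at term, none called. COL6A1, whose product joins that of COL6A3 in type VI collagen, was at -0.28 at LPS 16h, -0.28 at LPS 5d, -0.25 with LPS + Beta-Ac and -0.46 at term, and passed in none of the 4.

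Of 9 tested collagen receptors, 3 rose and 2 fell in each of the 3 LPS comparisons, and 1 fell at term, and at LPS 16h the share that fell was near that of all genes. OSCAR rose by 2.60 at LPS 16h, 2.23 at LPS 5d and 3.23 with LPS + Beta-Ac, and LAIR1 by 1.84, 1.70 and 2.26. Both are known as receptors of leukocytes. The 8 leukocyte markers summed to 156 to 266 CPM in the preterm controls, 1385 to 1653 CPM at LPS 16h, 263 to 287 CPM at LPS 5d and 409 to 693 CPM with LPS + Beta-Ac, and their part in the rise of OSCAR and LAIR1 was not tested. ITGA10, a relative of ITGA11, was called at LPS 16h (-1.05, adjusted p = 0.027). Of the 12 genes of the SPARC family and matricellular proteins, 3 fell and 2 rose at LPS 16h, shares near those of all genes, and 3 fell at LPS 5d, 3 with LPS + Beta-Ac and 2 at term. THBS1, thrombospondin 1, rose at LPS 16h by 4.57 (SE 0.27), from 91.1 to 148 CPM in preterm controls to 1981 to 4240.3 CPM, and was at -0.24 by LPS 5d. SPOCK2 (-2.11) and SPOCK3 (-1.59) were called lower at LPS 16h, SPOCK1 at LPS 5d (-1.43) and with LPS + Beta-Ac (-1.25), and TGFBI at LPS 5d (-1.07) and at term (-1.51). Of 8 tested relatives of FAP and collagen-degrading proteases, 5 rose and 1 fell at LPS 16h, 1 fell at LPS 5d and at term, and 1 fell and 1 rose with LPS + Beta-Ac. The neutrophil collagenase MMP8 had 0 to 2 counts in the preterm controls and 1602 to 6405 at LPS 16h, and MMP1, the interstitial collagenase, had 22 to 32 and 464 to 4304 counts. DPP4, a relative of FAP, was called with LPS + Beta-Ac (1.20, adjusted p = 0.017).

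**Figure D5:**
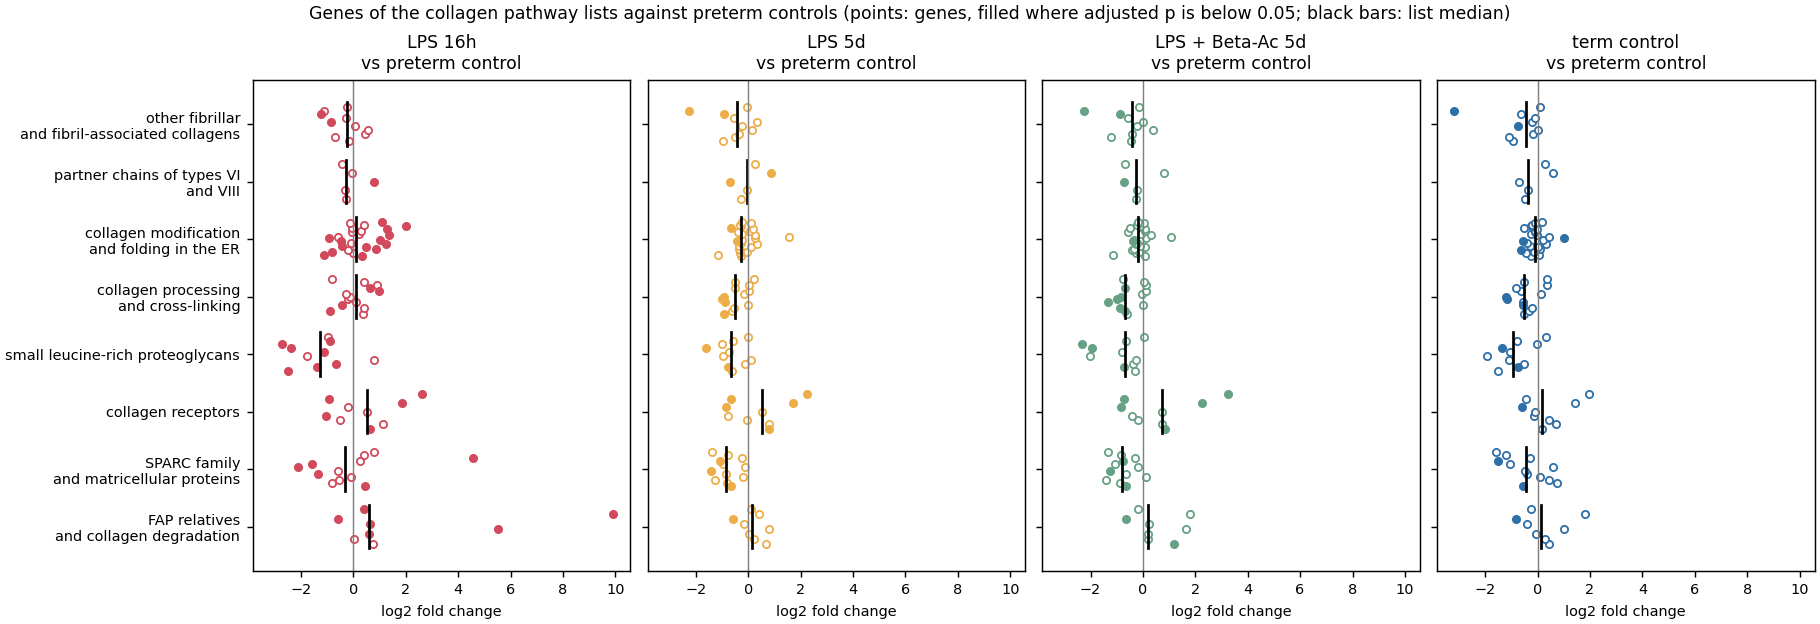
The x axis gives the log2 fold change of each gene of the 8 pathway lists against preterm controls, with filled points where the adjusted p is below 0.05 and a black bar at the list's median. At LPS 16h the proteoglycans lie lowest (median -1.26), and single genes such as THBS1 (4.57) and MMP8 lie far to the right of the rest of their lists. The position of MMP8 depends on the prior count, since its preterm controls held 0 to 2 counts.

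The profile of the 10 genes was set beside that of every other tested gene, by Pearson's r over the 16 animals with the mean of the 10 centred profiles. Among the 10 themselves r ran from 0.60 (COL5A1) to 0.92 (COL1A1), where each gene is part of the mean. The 5 other genes with a symbol nearest to the mean were ANLN (r = 0.892, Spearman's rho = 0.876), CDCA5 (0.892 and 0.868), CDCA7 (0.892 and 0.888), PIMREG (0.889 and 0.853) and PCLAF (0.877 and 0.897). ANLN is an actin-binding protein of the cleavage furrow and CDCA5 guards sister chromatid cohesion. The animals fall in 5 groups and share the libraries, so these values describe the order of the groups as much as that of single animals. The 8 proliferation markers, a list that does not hold these 5 genes, summed to 147 to 207 CPM in the preterm controls and 111 to 173 CPM at LPS 16h, and to 60.7 to 72.7 CPM at LPS 5d, 82.5 to 89.3 CPM with LPS + Beta-Ac and 53.5 and 68.9 CPM at term. Of these 8 markers 8 fell at LPS 5d, 6 with LPS + Beta-Ac, 7 at term and 2 at LPS 16h. Their part in the results for the collagens was not tested.

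Markers of the other cell types of the lung also moved with the groups. The 8 markers of smooth muscle and pericytes, cells that also make interstitial collagen, summed to 2536 to 3040.4 CPM in the preterm controls, 1986 to 2251 CPM at LPS 16h, 1569 to 1696 CPM at LPS 5d, 1492 to 1720.2 CPM with LPS + Beta-Ac and 1384 and 1733 CPM at term. These markers did not all move alike. At LPS 16h 6 of them fell and 2 rose at an adjusted p below 0.05 in limma. At LPS 5d 4 fell, with LPS + Beta-Ac 5 and at term 3, and 0 rose. Of the 11 tested fibroblast and mesenchyme markers, 8 fell at LPS 16h, 3 at LPS 5d, 2 with LPS + Beta-Ac and 0 at term, and 0 rose. The medians were -0.60, -0.39, -0.31 and -0.25. For comparison, the medians of the 10 collagens and partners in the same order were -0.69, -0.76, -0.80 and -1.09. The epithelial markers summed to 6038 to 8664 CPM in the preterm controls, 6508 to 13685 CPM at LPS 16h and 11390 to 17015 CPM at LPS 5d. Their sums were 12235 to 16987 CPM with LPS + Beta-Ac and 12305 and 14893 CPM at term. At LPS 16h 5 of these 8 markers were lower and 3 higher than in preterm controls, with a median of -0.17. The 6 endothelial markers summed to 1684 to 2009.9 CPM in the preterm controls and 1129.8 to 1716 CPM at LPS 5d. The 4 measured erythroid markers ranged from 348 to 1561 CPM over all animals. Whether any of these shifts in cell markers accounts for the levels of the collagens was not tested.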

How the data were processed

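RNA was extracted from fetal lung, poly(A)-selected and sequenced as paired-end reads. The authors assigned reads with kallisto to the rhesus build Mmul_10 and used DESeq2 for their own comparisons (submitters' processing notes, no versions given). The deposited table gives each animal an unnormalized whole count for each Ensembl gene, 22515 genes by 16 animals, 629 of them without any count. The sources used here do not say whether estimated counts were rounded. The layout of the table did not let the unit be recorded as counts, so the planned count models were replaced by limma.

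Library sizes were corrected with TMM factors (trimming 30% of log ratios and 5% of mean values), and log2 CPM took 2 as the prior count (R 4.3.3). Genes with at least 0.371 CPM in 2 animals and 15 counts in total were kept (19199 genes). All 16 animals entered 1 fit in limma 3.58.1, which had a mean for each group, an intensity trend and robust variance shrinkage. CPM in the text are TMM-scaled, and fold changes are on the log2(CPM) scale with that prior, which shrinks those of scarce genes. Ratios were compared by two-sided exact permutation tests (scipy 1.17.1). The steps were tested on simulated counts. Symbols came from a reference table of names, which matched 17256 IDs. CTSK, FGFR4, HBB and HBG2 had no matched ID, and GP6 and MMP13 were too scarce to test. Squared differences between pairs of replicates were 31.1 to 166.1 times those of counting error alone (chi-square per degree of freedom). None was therefore treated as a duplicate, and replicates are separate animals. No batch is given in the labels, and the animal numbers do not repeat between groups.

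The members, gene lists and tests were chosen with earlier results of these data known. Named are the 10 members, up to 3 called genes of each pathway list per comparison, taken by size of change, and the 5 genes with a symbol most like the members' mean profile. COL6A1 was named after its values were seen. Alternatives were voom weights, other scalings, no filter, another prior, fits of 2 groups, gestational age as a covariate, each animal left out and, chosen after seeing the data, preterm control 209 and term control 200 left out together and thinning to the smallest library.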

Additional observations from a re-analysis of the deposited data

Results flagged for a closer look

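In the groups of 4 animals, 26 sets of values (10 genes and 3 ratios in the preterm controls and at LPS 16h) were examined for an animal far from the other 3. Chance gives such an animal in about 1 of 20 independent sets, and 4 were found. The sets share animals, and the ratios are made from the same genes. The number found therefore cannot be set against chance. In the preterm controls, animal 101 had the lowest COL8A2, and its gap to the next animal was 0.992 of the group's range on the log2 scale. Preterm control 209 had the highest ratio of COL1A1 to COL1A2, with a gap of 0.880 of the range. LPS 16h animal 035 had the lowest COL1A2, with a gap of 0.834, and the highest ratio of COL1A1 to COL1A2, with a gap of 0.833.

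The change after LPS differed between 16 hours and 5 days, by the test of the difference itself, in 3 of the 10 genes, where 35.1% of all genes tested did, so the count is no more than that over all genes. On the log2 scale LPS 5d minus LPS 16h was 0.51 in COL5A1, -0.52 in COL5A2 and -2.18 in COL8A2. COL5A1 no longer passed without LPS 5d animal 240 (0.41, adjusted p = 0.054 in limma), nor COL5A2 without any 1 of LPS 16h animals 026, 035 and 038 and LPS 5d animals 239 and 242 (adjusted p from 0.066 to 0.11).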

How the results depend on the processing

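Counts of the 10 genes called were compared with 2 at LPS 16h, 0 at LPS 5d, 4 with LPS + Beta-Ac and 4 at term, each against preterm controls, and 1 for LPS 5d against LPS 16h. Scaling to total counts gave 4 at LPS 16h, and it moved the median of all genes there from -0.09 to -0.29. Thinning gave 1 at LPS 5d. Gestational age as a covariate gave 1 with LPS + Beta-Ac and 3 for LPS 5d against LPS 16h. Without animals 209 and 200 the counts were 2 with LPS + Beta-Ac and 1 at term, and a fit of the 2 groups alone gave 0 at term, where fewer animals set the spread. With 1 animal left out the counts ran from 1 to 2 at LPS 16h, 0 to 2 at LPS 5d, 0 to 5 with LPS + Beta-Ac, 0 to 5 at term and 1 to 2 for LPS 5d against LPS 16h. The other 60 counts under other settings and 40 with an animal left out stayed within 1.5 times, and the cause of the changes was not tested.

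Directions reversed in small differences. FAP at LPS 16h (-0.00) became 0.044 with median-of-ratios scaling, 0.0012 without a filter, 0.041 with the 2 groups alone, 0.42 with age and 0.011 without 209 and 200, and COL1A1 there became 0.45 with age. With age, LPS + Beta-Ac minus LPS 5d became 0.20 in FAP, 0.31 in COL8A2, 0.046 in COL5A2 and 0.0086 in SPARC, and COL1A2 between LPS 5d and LPS 16h became -0.23. Scaling to total counts gave -0.027 in COL5A2 for LPS 5d against term, and -0.032 in COL5A1 and -0.014 in COL6A3 for LPS + Beta-Ac against term. Without 209 and 200 COL5A2 for LPS 5d against term became -0.11, and thinning gave 0.036 in COL8A2 between the 5-day groups. With 1 animal left out the ranges that crossed 0 were FAP at LPS 16h (-0.26 to 0.20), COL1A2 for LPS 5d against LPS 16h (-0.086 to 0.38) and COL5A2 for LPS 5d against term (-0.11 to 0.22). For LPS + Beta-Ac against term they were ITGA11 (-0.41 to 0.92), COL5A1 (-0.032 to 0.14), COL6A3 (-0.14 to 0.30), COL5A2 (-0.21 to 0.11) and COL1A2 (-0.0024 to 0.42). Between the 5-day groups they were FAP (-0.25 to 0.21), COL8A2 (-0.38 to 0.19), COL6A3 (-0.071 to 0.37) and COL5A2 (-0.20 to 0.0023). Of the ratios, COL1A1 to COL1A2 ran from -0.24 to 0.079 at LPS 5d and from -0.30 to 0.018 between the 5-day groups, COL1A1 to COL3A1 from -0.46 to 0.0033 and from -0.45 to 0.013, and SPARC to COL1A1 from -0.21 to 0.52 at LPS 5d.

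Planned fits with edgeR and DESeq2 were not run, since the table's unit could not be recorded as counts. No paired analysis was possible because the animal numbers are not shared between groups. COL8A2, FAP and ITGA11 had the fewest counts, at least 12, 32 and 40 per animal, and thinning to the smallest library changed 1 call among the members, that of COL8A2 at LPS 5d (-1.21, adjusted p = 0.042 in limma).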
